A study of Homo sapiens with 9 samples.

Results

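Levels of 10 genes that control the passage of a cell from G1 into S phase were examined in breast cancer cells transfected with siRNAs against the long noncoding RNA LINC00673. The genes were the D-type cyclins CCND1, CCND2 and CCND3, the E-type cyclins CCNE1 and CCNE2, the cyclin-dependent kinases CDK2, CDK4 and CDK6, and the CDK inhibitors CDKN1A (p21) and CDKN1B (p27). They were chosen by name, with earlier results of these data known, and all 10 were found by symbol among the 19930 genes of the expression table. Expression was measured by RNA sequencing in 9 libraries, with 3 libraries per group. The cells were labelled MDA-MB-453, an established human breast cancer cell line, and were harvested 48 h after lipid transfection with a control siRNA (si-NC) or with 1 of 2 siRNAs designed against LINC00673 (si-LINC00673-1 and si-LINC00673-2). All groups were thus transfected and carried a foreign siRNA, and no untransfected group was compared. The labels name the groups NC, 1 and 2, and the siRNA names used here follow the numbering of the study's oligonucleotides. LINC00673 itself was not analysed here, so the efficiency of each knockdown is unknown from these values.

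Progression through G1 is driven by cyclins, which rise and fall and activate partner kinases. D-type cyclins bind CDK4 or CDK6 and start the phosphorylation of the retinoblastoma protein RB1, which releases E2F transcription factors. E-type cyclins, themselves E2F targets, bind CDK2, complete this phosphorylation and allow DNA replication to begin. CDKN1A and CDKN1B bind cyclin-CDK complexes and inhibit CDK2. In breast cancer CCND1 is frequently amplified, and drugs that inhibit CDK4 and CDK6 are in clinical use. Much of the control of these proteins, CDKN1B and the cyclins above all, acts on protein stability and phosphorylation, which RNA sequencing does not measure.

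The guide strands of the siRNAs are shown because the comparisons rest on which of them was transfected. Each is written 5′ to 3′, with the seed (bases 2 to 8) in capitals, and the letters tt at a 3′ end are a DNA overhang of the synthetic oligonucleotide.
si-LINC00673-1: aGAAACCUcugauuccacctt
si-LINC00673-2: uUAUUAUUugagacagggucu
si-NC: aCGUGACAcguucggagaatt
The DNA letters complementary to each seed were searched for in the annotated 3′UTR of the 10 genes (GENCODE release 29, GRCh38). The site of si-LINC00673-1, AGGTTTC, was present in CCND2 and CDK6, and in 13.7% of the 11171 tested genes that had a 3′UTR. The site of si-LINC00673-2, AATAATA, was present in CCND2 with 2 copies, CDK6 with 3 copies and CDKN1B with 1 copy, and in 21.7% of those genes. The si-NC site, TGTCACG, was in 0 of the 10 genes and in 3.3% of those tested. The longest uninterrupted pairing of any of the siRNAs with a transcript of the 10 genes was 10 bases. Such letter matches describe the sequences and do not show binding.

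Promoters were taken as the 250 bases before and 50 bases after the start of a transcript. RefSeq (GRCh38.p14) windows of 6 of the 10 genes were searched, with 9 windows in all. No RefSeq windows were listed for CCND1, CCND2 and CDK2. CCNE2, the other E-type cyclin, was instead removed by hand before the search. The counts out of 6 genes therefore say nothing about CCNE2. The windows of CDKN1A, CDK4 and CCNE1 are printed because these genes had the largest rise, the only fall called with both siRNAs and the largest rise among the E-type cyclins. Capitals mark the GC box (GGGCGG or its complement CCGCCC) and the E-box (CACGTG), read on both strands, and each sequence follows the direction of transcription.
CDKN1A, chr6:36678464-36678763, plus strand: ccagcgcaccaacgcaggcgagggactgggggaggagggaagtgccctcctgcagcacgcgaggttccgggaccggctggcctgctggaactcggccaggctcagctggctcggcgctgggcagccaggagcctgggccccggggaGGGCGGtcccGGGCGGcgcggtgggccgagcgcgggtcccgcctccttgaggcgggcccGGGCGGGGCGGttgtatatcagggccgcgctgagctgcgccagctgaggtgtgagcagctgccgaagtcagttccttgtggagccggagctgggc
CDK4, chr12:57752261-57752560, minus strand: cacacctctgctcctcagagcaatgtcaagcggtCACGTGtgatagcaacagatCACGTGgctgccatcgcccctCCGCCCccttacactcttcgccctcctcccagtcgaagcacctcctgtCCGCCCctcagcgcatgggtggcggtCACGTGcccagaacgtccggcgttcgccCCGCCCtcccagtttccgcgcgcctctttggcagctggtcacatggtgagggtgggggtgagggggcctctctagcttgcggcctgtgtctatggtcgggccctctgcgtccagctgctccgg
CCNE1, chr19:29811741-29812040, plus strand: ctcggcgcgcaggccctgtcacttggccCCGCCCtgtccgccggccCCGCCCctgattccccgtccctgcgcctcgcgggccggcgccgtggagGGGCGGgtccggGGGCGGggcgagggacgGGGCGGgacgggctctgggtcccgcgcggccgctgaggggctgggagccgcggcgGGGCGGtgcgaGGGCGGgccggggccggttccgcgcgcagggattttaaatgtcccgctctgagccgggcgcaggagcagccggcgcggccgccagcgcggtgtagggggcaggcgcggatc
The CDKN1A window held 4 GC boxes, beginning at positions -104, -94, -45 and -40 relative to the start. CDK4 carried 3 E-boxes, at -216, -196 and -101, beside 3 GC boxes, and CCNE1 carried 7 GC boxes. A GC box was present in all 6 genes searched and in 45.0% of all 35116 promoter windows. In these comparisons a gene was counted if any of its windows held the letters, and CCND3 and CDK6 had several windows. The shares over all windows are per single window, so the units are unlike. An E-box was present in 2 of the 6, CDK4 and CDK6, against 7.3% of all windows. The CCAAT box (CCAAT) occurred in CCND3 and CDKN1B and in 34.6% of all windows. The cAMP response element (TGACGTCA, 1.8% of all windows), the TATA box (TATAAA, 11.5%) and 4 forms of the E2F site (TTTCCCGC, TTTCGCGC, TTTGCCGC and TTTGGCGC, together 3.3%) occurred in 0 of the 6, which says only that these letters were not in these windows.

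The libraries were sequenced to a similar depth, estimated from the steps between low values at 23.4 to 28 M fragments each. Correlations of log2 values between libraries were 0.9945 to 0.9959 within groups and 0.9552 to 0.9903 between groups. The labelled cell line was only partly matched by its markers. Epithelial genes were high, with KRT8 at 3011 to 3773 FPKM (fragments mapped to a gene, per base length of its transcript and per library size) and EPCAM at 287 to 330 FPKM, but FOXA1, a transcription factor of luminal breast cells that MDA-MB-453 is known to express, was listed at 0 to 0.04 FPKM. VIM, a mesenchymal gene, was at 366 to 441 FPKM. ERBB2 was at 11.8 to 17.8 FPKM, and ESR1 at 0 to 0.02 FPKM. All libraries are therefore called libraries labelled MDA-MB-453. Of 12 markers of basal, mesenchymal, immune and endothelial cells, 11 were in the table and 2, VIM and COL1A1, reached 1 FPKM in any library. The other 9 stayed below 1 FPKM everywhere. Summed without VIM, the list was at 5.19 to 5.99 FPKM in si-NC, 7.48 to 8.29 with si-LINC00673-1 and 7.39 to 9.31 with si-LINC00673-2, so the sum moved with the siRNAs. Most of this sum was COL1A1, at 3.83, 5.54 and 6.47 FPKM in the group means. Its log2 differences from si-NC were 0.44 and 0.62, and the sum does not describe the other markers. Markers of the line itself moved too. FGFR4, a growth factor receptor, was at 17.9 to 33.1 FPKM, with log2 differences from si-NC of -0.53 with si-LINC00673-1 and -0.71 with si-LINC00673-2. KRT18, the keratin partner of KRT8, was at 1680 to 2509 FPKM, with differences of -0.46 and -0.48. Those of KRT8 were -0.17 and -0.12 and those of EPCAM 0.17 and 0.13. The part of these markers in the values below was not tested.

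In si-NC the 10 genes spanned a wide range of levels per transcript length. CDK4 was highest at 64.7 ± 1.89 FPKM (mean ± SD, n = 3), at percentile 92.1 of the genes tested, followed by CDK2 at 44.4 ± 0.66 and CCND1 at 42.1 ± 0.86. CDKN1B was at 28.4 ± 0.47 FPKM. CCND3 at 22.4 ± 1.05 and CDK6 at 22.1 ± 1.17 FPKM overlapped and could not be ordered, and CDKN1A lay below both at 15.4 ± 0.32. The E-type cyclins were scarce, with CCNE1 at 1.64 ± 0.40 and CCNE2 at 1.18 ± 0.11 FPKM, which also overlapped and lay at percentiles 8.7 and 3.8. CCND2 was nearly absent at 0.087 ± 0.023 FPKM. The other neighbours in this order did not overlap between libraries.

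The order differed after transfection with either siRNA against LINC00673. With si-LINC00673-1 the highest of the 10 was CCND1 at 56.2 ± 0.27 FPKM, and CDK4 came after CDK2. With si-LINC00673-2 the highest was CDK2 at 57.4 ± 0.75, and CDK4 came after CCND1. CDKN1A, below CDKN1B in each si-NC library, was above it in each library of both siRNAs, and with si-LINC00673-2 its range overlapped that of CCND3. These are comparisons of levels per length between genes, for which no test was run.

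**Figure D1:**
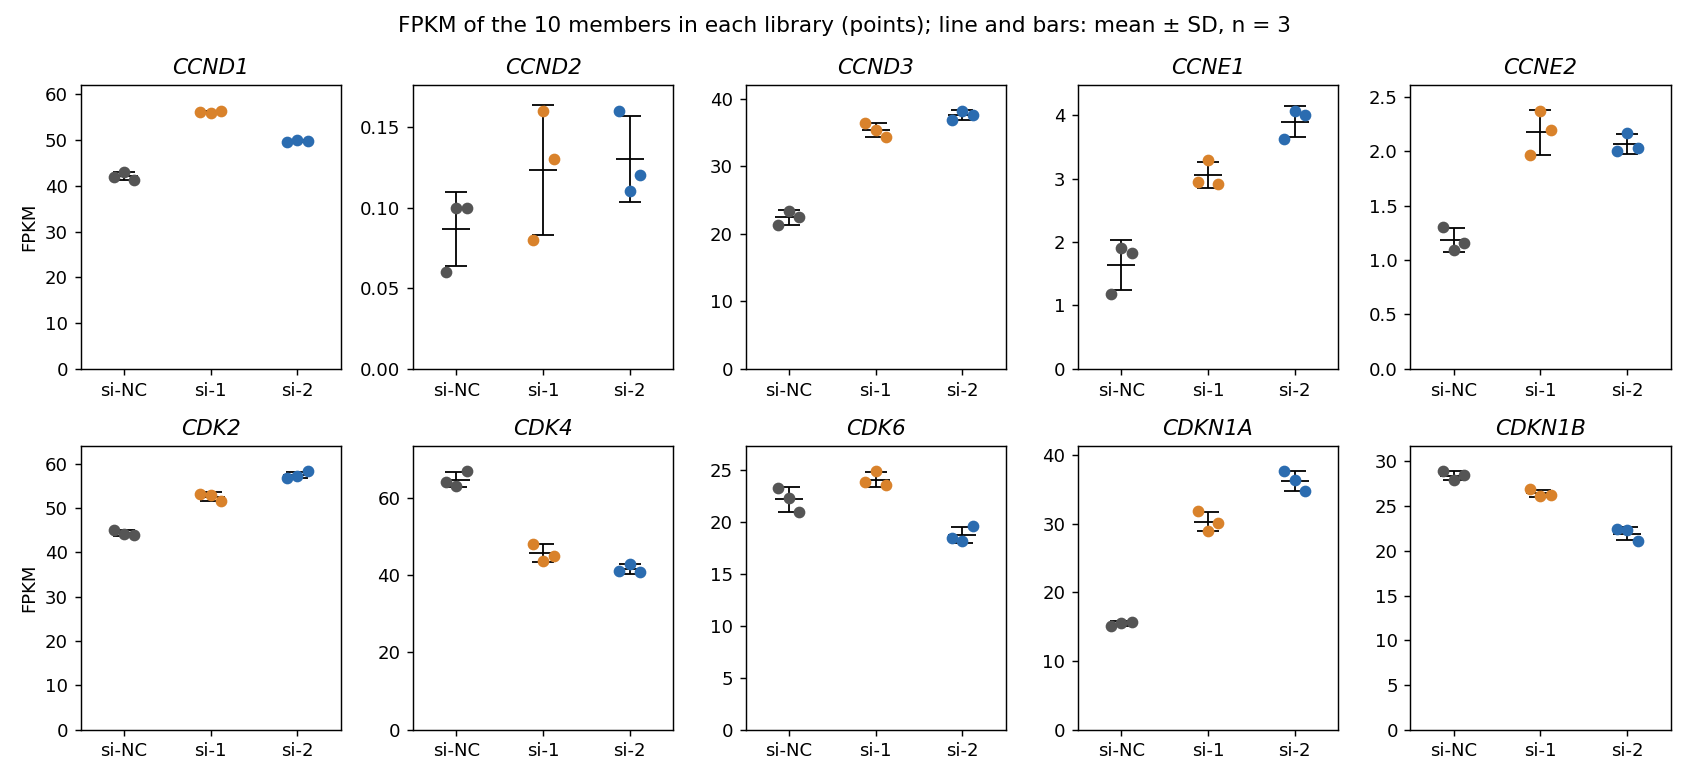
FPKM of each of the 10 genes (vertical axes, linear, each starting at 0) in the 3 libraries of si-NC, si-LINC00673-1 (si-1) and si-LINC00673-2 (si-2). Points are libraries, the horizontal line is the mean and the bars are ± SD (n = 3). CDKN1A goes from 15.1 to 15.7 FPKM in si-NC to 34.8 to 37.6 with si-LINC00673-2, while CDK4 goes from 63.2 to 66.9 to 40.8 to 43.0.

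Each siRNA was compared with si-NC to ask which of the genes differed after its transfection. Values were compared as log2(FPKM + 1) with limma across all 12884 genes with a mean of 1 FPKM or more, which included 9 of the 10 genes. A gene was called, by the study's criteria, when it differed by 1.3-fold or more (0.38 on the log2 scale) with an unadjusted P of 0.05 or less, and the Benjamini-Hochberg adjusted P from limma is given for each value. Adding 1 FPKM understates the change of the scarce E-type cyclins. Both comparisons share the si-NC libraries and are not independent. With si-LINC00673-1, 5 of the 9 tested genes rose (CCND1, CCND3, CCNE1, CCNE2 and CDKN1A), CDK4 fell and 3 were not called. Of all genes tested, 26.7% were called in this comparison, 11.1% higher and 15.6% lower. With si-LINC00673-2, 4 rose (CCND3, CCNE1, CCNE2 and CDKN1A), CDK4 fell and 4 were not called, against 34.0% of all genes tested, 11.0% higher and 23.1% lower. Each of these calls was also made with an adjusted P of 0.05 or less at the same fold, as were 26.5% and 33.9% of all genes tested. Without the fold limit the adjusted P passed for all 9 genes with either siRNA, except that CDK6 with si-LINC00673-1 did not pass under GC correction (adjusted P = 0.28), and for 64.4% and 70.8% of all genes tested. In RNA from a whole culture, a change in how many cells are in a given phase and a change in RNA per cell cannot be told apart. The median log2 difference of the 9 genes was 0.41 and 0.36 with the respective siRNAs, beside 0.0032 and -0.095 over all genes tested. For each of the 9 genes the libraries of either siRNA did not overlap those of si-NC, but this was so for 70.0% and 73.0% of all genes tested and does not set them apart. The labels do not say whether libraries came from separate cultures, so P values measure the spread between these libraries, which may be technical.

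**Figure D2:**
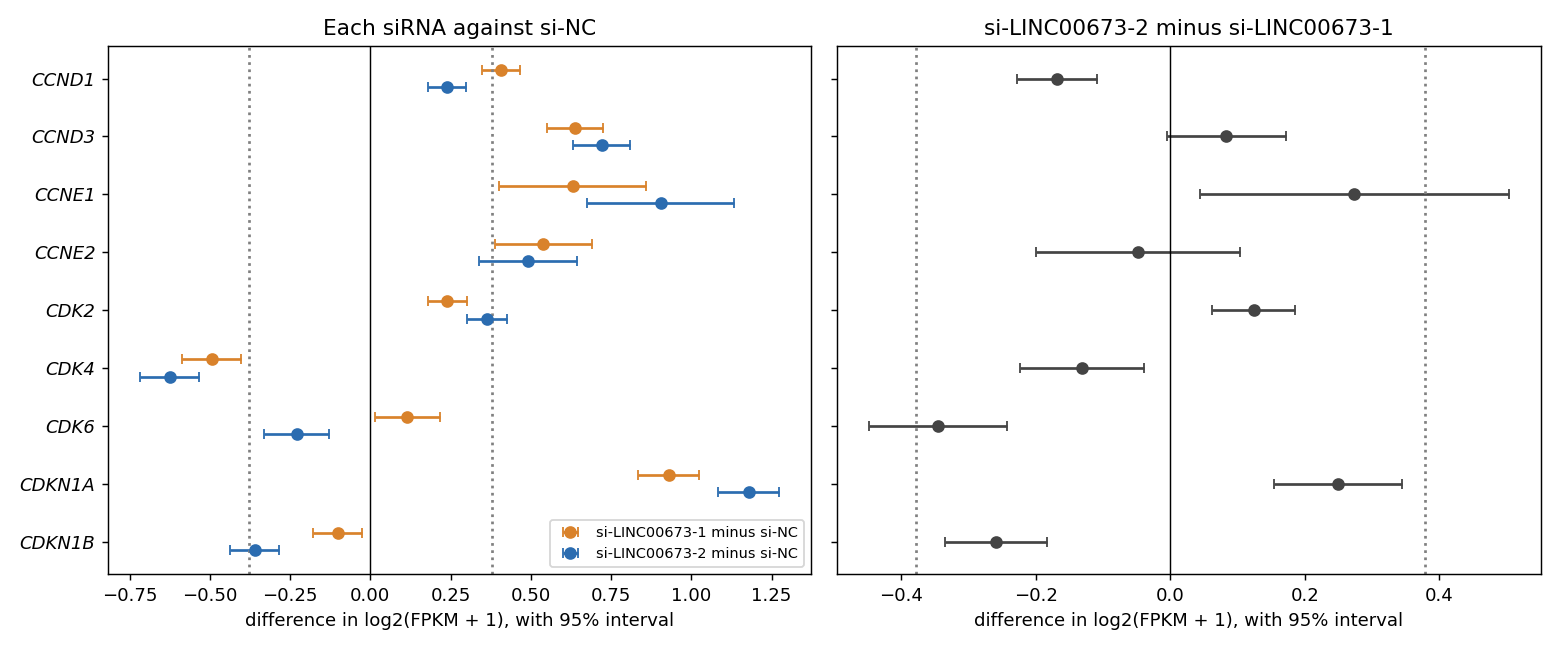
Differences in log2(FPKM + 1) of the 9 tested genes (horizontal axes) with 95% intervals from limma, for each siRNA minus si-NC on the left and for si-LINC00673-2 minus si-LINC00673-1 on the right. Dotted lines mark the 1.3-fold limit, and the left panel shows CDKN1A farthest to the right, at 0.93 and 1.18, and CDK4 farthest to the left, at -0.49 and -0.63.

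CCND1 (Gene ID 595, chromosome 11, 69455873 to 69469242, plus strand, GRCh37), the cyclin D1 gene that couples growth factor signals to CDK4 and CDK6, was at 41.9, 43.1 and 41.4 FPKM in si-NC. The values were 56.2, 55.9 and 56.4 FPKM for si-LINC00673-1, whereas si-LINC00673-2 gave 49.7, 50.0 and 49.9 FPKM. The 3 groups did not overlap, and si-LINC00673-2 lay between the others. CCND1 rose with si-LINC00673-1 by 0.41 on the log2 scale (SE 0.026, adjusted P = 1.1e-06), and with si-LINC00673-2 the difference was 0.24 (SE 0.026, adjusted P = 2.3e-05), short of the fold limit. With values corrected for GC content the difference with si-LINC00673-1 was 0.37, also short of that limit. LTO1 shares 497 exon bases with CCND1 on the opposite strand in GENCODE, although the deposited coordinates of the pair do not overlap. It is listed in the table under its older symbol ORAOV1, matched by Gene ID, at 8.82, 6.95 and 5.76 FPKM in the means of si-NC, si-LINC00673-1 and si-LINC00673-2. Its log2 differences from si-NC were -0.31 (adjusted P = 9.4e-05) and -0.54 (adjusted P = 1.4e-06), opposite in sign to those of CCND1. Whether reads were counted by strand is not given in the sources used here, so reads of overlapping genes may not be told apart.

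CCND3 (Gene ID 896, chromosome 6, 41902671 to 42016632, minus strand), which encodes cyclin D3, was at 21.4, 23.5 and 22.5 FPKM in si-NC. Its values were 36.5, 35.4 and 34.4 FPKM with si-LINC00673-1 and 36.8, 38.2 and 37.7 FPKM with si-LINC00673-2. All siRNA libraries were above all si-NC libraries. The gene rose by 0.64 (SE 0.039, adjusted P = 7.9e-07) and by 0.72 (SE 0.039, adjusted P = 2.0e-07). CCND2 (Gene ID 894, chromosome 12, 4382902 to 4414522, plus strand), the third D-type cyclin, lay between 0.06 and 0.16 FPKM in the 9 libraries, with overlapping groups. That range corresponds to about 10 to 26 estimated fragments per library, and the gene was below the expression limit of the main test. In a fit without that limit its difference was 0.047 with si-LINC00673-1 (unadjusted P = 0.166, limma) and 0.056 with si-LINC00673-2 (unadjusted P = 0.108, limma), so that no difference was detectable at this depth.

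CCNE1 (Gene ID 898, chromosome 19, 30302901 to 30315224, plus strand), which encodes cyclin E1, the CDK2 partner at the G1/S transition, was at 1.18, 1.90 and 1.83 FPKM in si-NC. With si-LINC00673-1 it was at 2.95, 3.29 and 2.92 FPKM, and with si-LINC00673-2 at 3.62, 4.07 and 4.01 FPKM. The si-NC library of replicate 1 was lower than its group, and no groups overlapped. CCNE1 rose by 0.63 (SE 0.10, adjusted P = 0.00039) and by 0.90 (SE 0.10, adjusted P = 2.7e-05), and the ratios of mean FPKM without any added value were 1.87 and 2.38. CCNE2 (Gene ID 9134, chromosome 8, minus strand), its paralog, was at 1.3, 1.09 and 1.16 FPKM in si-NC, 1.96, 2.37 and 2.19 FPKM with si-LINC00673-1, and 2, 2.17 and 2.03 FPKM for si-LINC00673-2. Both siRNA groups were above si-NC and overlapped each other. It rose by 0.54 (SE 0.068, adjusted P = 7.2e-05) and 0.49 (SE 0.068, adjusted P = 0.00011), with ratios of mean FPKM of 1.84 and 1.75. INTS8, a subunit of the Integrator complex, shares 1629 exon bases with CCNE2 on the opposite strand in GENCODE (GRCh38). INTS8 was itself at 11.4, 15.9 and 15.3 FPKM in the means of si-NC, si-LINC00673-1 and si-LINC00673-2, called higher in both comparisons. How much of the CCNE2 value comes from INTS8 reads was not tested.

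CDK2 (Gene ID 1017, chromosome 12, 56360553 to 56366573, plus strand), the kinase partner of the E-type cyclins, was at 45.2, 44.1 and 43.9 FPKM in si-NC. It was at 53.24, 53.02 and 51.55 FPKM in the si-LINC00673-1 libraries, and 56.8, 57.2 and 58.3 FPKM in those of si-LINC00673-2. The 3 groups were separate, with si-NC lowest. The log2 difference was 0.24 (SE 0.028, adjusted P = 3.9e-05) with si-LINC00673-1 and 0.36 (SE 0.028, adjusted P = 1.7e-06) with si-LINC00673-2, both below the fold limit. With si-LINC00673-2 the gene was called higher when libraries were scaled by their median ratio (0.47) or corrected for GC content (0.41).

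CDK4 (Gene ID 1019, chromosome 12, 58141510 to 58146230, minus strand), the main kinase partner of the D-type cyclins together with CDK6, was at 64.1, 63.2 and 66.9 FPKM in si-NC. It was at 48.2, 43.8 and 45.0 FPKM in the si-LINC00673-1 libraries, and 41.0, 43.0 and 40.8 FPKM in those of si-LINC00673-2. All siRNA libraries lay below all si-NC libraries. CDK4 fell by 0.49 on the log2 scale (SE 0.041, adjusted P = 4.7e-06) and by 0.63 (SE 0.041, adjusted P = 6.9e-07), to 0.706 and 0.643 of the si-NC mean. Among the 10 genes it was the only one called lower, under each scaling tried. TSPAN31, which encodes a tetraspanin, shares 1369 exon bases with CDK4 on the opposite strand in GENCODE (GRCh38). In the deposited GRCh37 coordinates the pair overlaps only from 58141510 to 58142026, a shorter stretch. TSPAN31 was at 12.6 FPKM in si-NC, 9.27 with si-LINC00673-1 and 8.84 with si-LINC00673-2, and was also called lower in both. The part of shared reads in either gene was not tested.

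CDK6 (Gene ID 1021, chromosome 7, 92234235 to 92465941, minus strand), the other D-cyclin kinase, was at 23.2, 22.3 and 20.9 FPKM in si-NC. With si-LINC00673-1 it was slightly above these values, at 23.8, 24.8 and 23.6 FPKM, and with si-LINC00673-2 below them, at 18.5, 18.1 and 19.6 FPKM. The difference from si-NC was 0.12 (SE 0.046, adjusted P = 0.048) with the first siRNA and -0.23 (SE 0.046, adjusted P = 0.0012) with the second. Neither reached the fold limit. After median-ratio scaling the difference with si-LINC00673-2 was smaller, at -0.13 (adjusted P = 0.020, limma). The difference with si-LINC00673-1 did not hold under each alternative. With values corrected for GC content it was 0.037 (95% interval -0.028 to 0.10, adjusted P = 0.28), which includes 0, and with a replicate block its unadjusted P was 0.0588. Without si-NC replicate 3 it was 0.076 (unadjusted P = 0.123) and without si-LINC00673-1 replicate 2 it was 0.093 (unadjusted P = 0.106). Without si-NC replicate 2 or si-LINC00673-1 replicate 1 the unadjusted P was 0.054 and 0.0505.

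CDKN1A (Gene ID 1026, chromosome 6, 36644237 to 36655116, plus strand), the p21 inhibitor, was at 15.1, 15.5 and 15.7 FPKM in si-NC. It was at 31.85, 28.99 and 30.11 FPKM in the si-LINC00673-1 libraries, and 37.6, 36.3 and 34.8 FPKM in those of si-LINC00673-2. No groups overlapped, and the lowest siRNA library was well above the highest of si-NC. The rise was 0.93 (SE 0.043, adjusted P = 1.1e-07) and 1.18 (SE 0.043, adjusted P = 1.5e-08), or 1.96 and 2.35 times the mean FPKM. Of all genes tested, 3.63% and 2.62% had a larger absolute difference in the respective comparison. In GENCODE (GRCh38) CDKN1A overlaps the noncoding gene DINOL on the opposite strand by 146 exon bases, and DINOL was not analysed here.

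CDKN1B (Gene ID 1027, chromosome 12, 12870204 to 12875317, plus strand), the p27 inhibitor, was at 28.88, 27.95 and 28.46 FPKM in si-NC. It was at 26.9, 26.1 and 26.3 FPKM in the si-LINC00673-1 libraries, and 22.5, 22.3 and 21.1 FPKM in those of si-LINC00673-2. The groups followed one another downward without overlap. The differences were -0.10 (SE 0.034, adjusted P = 0.024) and -0.36 (SE 0.034, adjusted P = 7.9e-06), and neither reached the fold limit. After median-ratio scaling the difference with si-LINC00673-2 was smaller, at -0.26 (adjusted P = 6.4e-05, limma). Thus, of the inhibitors of the Cip/Kip family among the 10 genes, CDKN1A was called higher with both siRNAs and CDKN1B was not called.

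Summed over related genes, D-type cyclin RNA was at 64.6 ± 1.76 FPKM in si-NC, 91.7 ± 0.89 with si-LINC00673-1 and 87.6 ± 0.85 with si-LINC00673-2. These are 1.42 and 1.36 times the control, and the share of CCND1 in the sum was 65.2%, 61.2% and 56.9% in the same order. E-type cyclin RNA was at 2.82 ± 0.29, 5.23 ± 0.39 and 5.97 ± 0.32 FPKM, or 1.85 and 2.12 times the control. The kinases of the D-type cyclins were lower, with CDK4 and CDK6 together at 86.9 ± 1.18, 69.7 ± 1.95 and 60.3 ± 0.81 FPKM, or 0.803 and 0.694 of the control. The inhibitors CDKN1A and CDKN1B together were at 43.9 ± 0.35, 56.8 ± 1.85 and 58.2 ± 2.15 FPKM, or 1.29 and 1.33 times the control, and the share of CDKN1A was 35.2%, 53.4% and 62.3%. For each of these 4 sums the siRNA libraries did not overlap those of si-NC, and the two-sided exact permutation P was 0.1, the smallest that 3 against 3 libraries allow. A sum of RNA levels is not a sum of protein complexes.

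**Figure D3:**
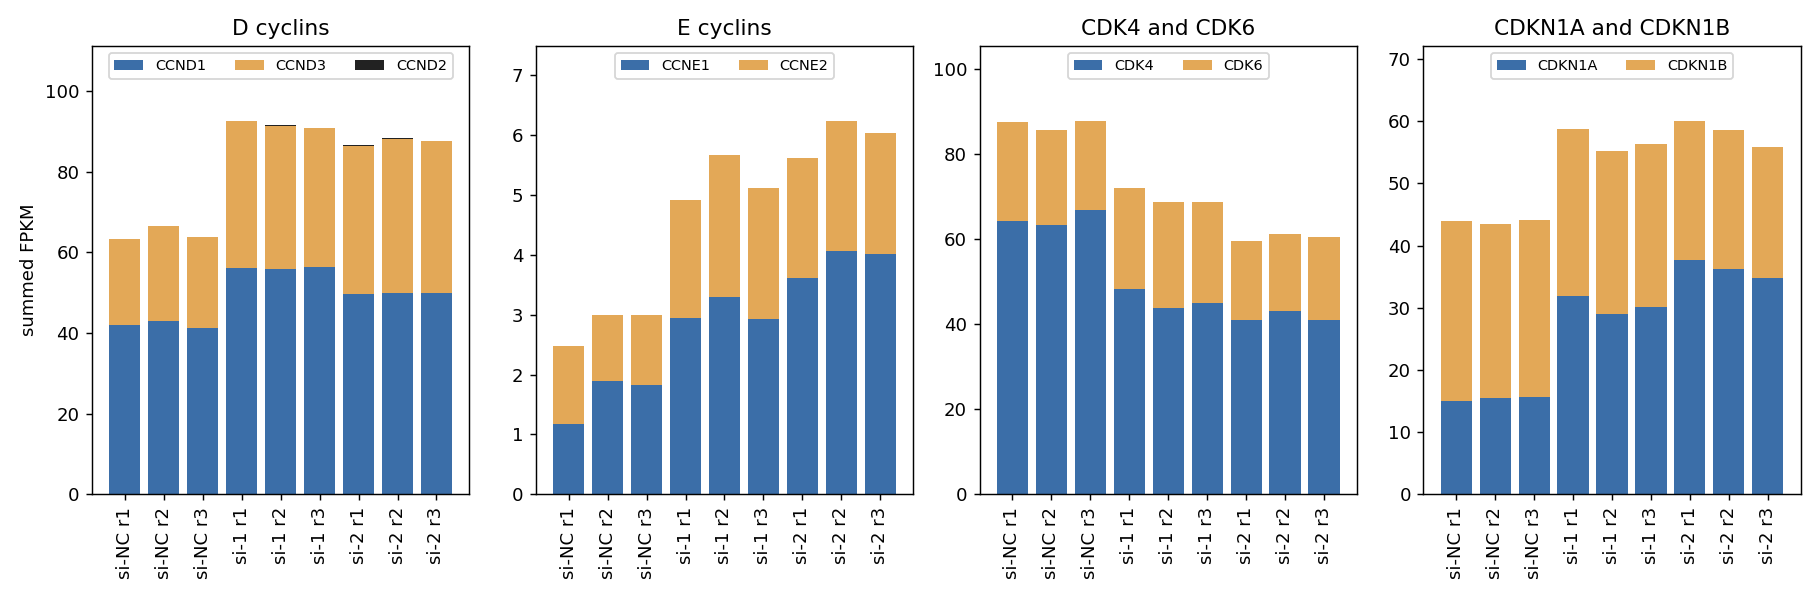
Summed FPKM (vertical axes, linear, from 0) of the D cyclins, the E cyclins, CDK4 with CDK6, and CDKN1A with CDKN1B, in each of the 9 libraries (r1 to r3 of each group; si-1 and si-2 are the siRNAs against LINC00673). Colours give the part of each gene: the CDKN1A part is 34.3 to 35.7% of its sum in si-NC and 62.0 to 62.6% with si-LINC00673-2.

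The siRNAs were also compared with each other. None of the 9 genes reached the fold limit between them, while 7.64% of all genes tested did, 2.19% higher and 5.45% lower with si-LINC00673-2, or 7.38% with the adjusted P. By the adjusted P alone 6 of the 9 differed, against 44.0% of all genes tested, and the libraries of the siRNAs did not overlap for 8 of the 9, against 53.7%. CDKN1A was higher with si-LINC00673-2 by 0.25 (95% interval 0.15 to 0.35, adjusted P = 0.0014, limma) and CDK2 by 0.12 (0.062 to 0.19, adjusted P = 0.0056, limma). Lower with si-LINC00673-2 were CDK6 by -0.35 (-0.45 to -0.24, adjusted P = 0.00037, limma), CDKN1B by -0.26 (-0.34 to -0.18, adjusted P = 0.00037, limma), CCND1 by -0.17 (-0.23 to -0.11, adjusted P = 0.00092, limma) and CDK4 by -0.13 (-0.22 to -0.039, adjusted P = 0.027, limma). The differences of CCND3 (0.083, interval -0.0047 to 0.17), CCNE1 (0.27, 0.045 to 0.50) and CCNE2 (-0.048, -0.20 to 0.10) did not pass. The median over all genes tested was -0.081 in this comparison, and these small differences depend on the scale. After scaling by the median ratio, CDK6 (-0.25, adjusted P = 0.0020, limma), CDKN1B (-0.16, adjusted P = 0.0048, limma), CDKN1A (0.35, adjusted P = 0.00033, limma) and CDK2 (0.23, adjusted P = 0.00025, limma) still passed. CDK4 (-0.029, adjusted P = 0.62, limma) and CCND1 (-0.066, adjusted P = 0.078, limma) did not, and CCND3 (0.18, adjusted P = 0.0072, limma) and CCNE1 (0.36, adjusted P = 0.024, limma) did. With GC correction CCND1 passed (-0.097, adjusted P = 0.0061, limma) and CDK4 did not (-0.068, adjusted P = 0.13, limma).

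CDK6 and CDKN1B are the tested members whose 3′UTR holds the seed site of si-LINC00673-2. The 3′UTR of CDK6 also holds 1 site of si-LINC00673-1, so in the comparison of the siRNAs it carries sites of both. All tested genes with a 3′UTR were divided by the si-LINC00673-2 site alone. The median difference between si-LINC00673-2 and si-LINC00673-1 was -0.13 for the 2420 genes with the site and -0.073 for the 8751 without it. Of these genes, 78.3% and 66.1% respectively were lower with si-LINC00673-2. Against si-NC the median with si-LINC00673-2 was -0.076 for genes with the site, beside -0.11 without it. With si-LINC00673-1 the same medians were 0.062 and -0.023. Genes with the site had longer 3′UTRs, with a median of 3039 bases against 1075, and the part of the seed in the CDK6 and CDKN1B values was not tested.

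Genes around the 10 members in the cell cycle were taken from 6 lists. Their counts stand beside the shares over all genes tested, of which 11.1% were called higher and 15.6% lower with si-LINC00673-1, and 11.0% higher and 23.1% lower with si-LINC00673-2, and nothing particular to a list is drawn from them. Of 5 other CDK inhibitors, 0 were called higher and 2 lower with si-LINC00673-1, and 1 higher and 3 lower with si-LINC00673-2 (median log2 difference -0.28 and -0.44). CDKN1C (p57), the third Cip/Kip inhibitor, was at 25.8 ± 2.40 FPKM in si-NC, 32.0 ± 2.58 with si-LINC00673-1 and 56.7 ± 4.69 with si-LINC00673-2. It rose with si-LINC00673-2 by 1.11 (adjusted P = 1.4e-06) and was not called with si-LINC00673-1 (0.30, adjusted P = 0.0088; 0.67 and called with GC correction). The difference between the siRNAs was itself called, at 0.81 (adjusted P = 8.4e-05). CDKN2A, which encodes p16, an inhibitor of CDK4 and CDK6, and p14ARF, fell by 0.85 (adjusted P = 9.3e-05) and by 0.49 (adjusted P = 0.0027), from 132 ± 13.1 to 73.0 ± 8.14 and 94.1 ± 12.8 FPKM, although the second fall was below the fold limit (-0.20) with values corrected for GC content. CDKN2C (p18), of the same INK4 family, fell by 0.51 (adjusted P = 5.9e-05) and by 0.44 (adjusted P = 0.00013), the second below the limit after scaling (-0.35) or GC correction (-0.26). CDKN2B (p15) was called lower with si-LINC00673-2 alone, and CDKN2D (p19) with neither.

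Among 13 genes of the RB and E2F families, 0 were called with si-LINC00673-1, and 1 higher and 2 lower with si-LINC00673-2 (medians -0.007 and -0.092). With a pseudocount of 0.1 the called numbered 2 and 5. The shares over all genes tested given above are for a pseudocount of 1 and do not apply to these counts. RB1, the substrate of the G1 kinases, was at 12.2, 14.3 and 13.4 FPKM in the means of si-NC, si-LINC00673-1 and si-LINC00673-2 and was not called (0.22 and 0.13). E2F3, an activator of S-phase genes, was at 7.09, 6.05 and 3.92 FPKM and fell with si-LINC00673-2 by 0.71 (adjusted P = 1.6e-06), with a difference of -0.20 for si-LINC00673-1. E2F5, a repressor, fell with si-LINC00673-2 by 0.62 (adjusted P = 2.2e-05) and differed by -0.34 with si-LINC00673-1. E2F1, the activator that is itself an E2F target, rose with si-LINC00673-2 by 0.39 (adjusted P = 0.0011) and differed by -0.075 with si-LINC00673-1 (0.23 with GC correction), and the call rested on its margin over the fold limit: without si-NC replicate 1 it was 0.31, without si-LINC00673-2 replicate 1 it was 0.36 and without si-LINC00673-2 replicate 2 it was 0.37. E2F7, an atypical repressor, differed by 0.35 and 0.36 and was not called, but it passed the fold limit with a pseudocount of 0.1 (0.41 and 0.42). With si-LINC00673-2 it also passed after scaling (0.45), with GC correction (0.40) and without that siRNA's replicate 2 (0.40). E2F5 was called lower with si-LINC00673-1 with a pseudocount of 0.1 (-0.40), under GC correction (-0.42) and without si-NC replicate 3 (-0.38) or si-LINC00673-1 replicate 2 (-0.39).

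Of 6 genes that activate or restrain CDKs, 2 were higher and 1 lower with si-LINC00673-1, and 2 higher and 0 lower with si-LINC00673-2 (medians 0.19 and 0.30). CDC25A, the phosphatase that removes inhibitory phosphates from CDK2, rose from 5.19 to 8.37 and 8.68 FPKM in the means, by 0.60 (adjusted P = 6.2e-06) and 0.65 (adjusted P = 2.5e-06). WEE1, the kinase that adds such phosphates, rose by 0.39 (adjusted P = 1.6e-05) and 0.43 (adjusted P = 6.4e-06), the first below the fold limit with GC correction (0.31). CDC37, a chaperone that delivers CDK4 to HSP90, fell by 0.38 with si-LINC00673-1 (adjusted P = 0.00037), below the limit with GC correction (-0.18), and differed by -0.24 with si-LINC00673-2. Of 11 genes for the turnover of cyclins and p27, 1 was higher and 0 lower with si-LINC00673-1, and 2 higher and 1 lower with si-LINC00673-2 (medians 0.15 and -0.002). RBX1, the RING subunit of the SCF ubiquitin ligase, rose by 0.40 (adjusted P = 0.00016) and 0.61 (adjusted P = 6.5e-06), the first below the limit with GC correction (0.32). SKP1, its adaptor, rose with si-LINC00673-2 by 0.40 (adjusted P = 2.7e-06) and differed by 0.31 with si-LINC00673-1, while CUL1, its scaffold, fell with si-LINC00673-2 by 0.47 (adjusted P = 1.3e-06), below the limit after scaling (-0.37), and differed by -0.011 with si-LINC00673-1. SKP2, the F-box protein that targets p27, was at 17.1, 19.1 and 16.9 FPKM and was not called (0.15 and -0.019). Calls near the fold limit were lost without single libraries. Without si-LINC00673-1 replicate 2, WEE1 was at 0.38, CDC37 at -0.35 and RBX1 at 0.36 with si-LINC00673-1. Without si-NC replicate 3, WEE1 was at 0.37 and CDC37 at -0.35, RBX1 was at 0.36 without si-NC replicate 1, and SKP1 with si-LINC00673-2 was at 0.37 without replicate 3 of that siRNA.

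Of 23 S-phase genes, 5 were higher and 2 lower with si-LINC00673-1, and 6 higher and 2 lower with si-LINC00673-2 (medians -0.003 and 0.16). MCM4, a subunit of the replicative helicase, rose from 24.0 to 46.6 and 48.7 FPKM, by 0.93 (adjusted P = 8.0e-08) and 0.99 (adjusted P = 2.7e-08). RRM2, the small subunit of ribonucleotide reductase, rose by 0.61 (adjusted P = 5.2e-07) and 0.74 (adjusted P = 8.4e-08). CDT1, which loads that helicase in G1, fell from 36.1 to 16.2 and 21.7 FPKM, by 1.11 (adjusted P = 3.8e-07) and 0.71 (adjusted P = 3.7e-06), the second below the limit with GC correction (-0.29). Of 14 genes of G2 and mitosis, 0 were called with si-LINC00673-1 and 4 were lower with si-LINC00673-2 (medians 0.039 and -0.31), where 23.1% of all genes tested were lower with si-LINC00673-2. With si-LINC00673-1 the called numbered 1 with a pseudocount of 0.1 and 2 with GC correction, all lower. The shares over all genes tested given above do not apply to these settings. With GC correction 1276 genes were called lower with si-LINC00673-1, against 2004 in the main fit. Between the siRNAs 5 of the 14 were called lower with si-LINC00673-2, where 5.45% of all genes tested were called lower. AURKA, a mitotic kinase, was at 32.5, 30.2 and 19.9 FPKM and fell with si-LINC00673-2 by 0.68 (adjusted P = 9.2e-08), against a difference of -0.10 with si-LINC00673-1. CENPF fell with si-LINC00673-2 by 0.91 (adjusted P = 2.6e-06) and CENPE by 0.60 (adjusted P = 0.00073), and both encode kinetochore proteins. With si-LINC00673-1 these differed by -0.34 and -0.35. CENPF was called lower there under GC correction (-0.41) and without si-NC replicate 3 (-0.39) or si-LINC00673-1 replicate 2 (-0.39), and CENPE under GC correction (-0.44) and without si-LINC00673-1 replicate 2 (-0.42) or 3 (-0.43). MKI67, the Ki-67 proliferation marker, was at 35.05, 42.73 and 30.90 FPKM and was called in neither comparison with si-NC (0.28 and -0.18), but was lower with si-LINC00673-2 than with si-LINC00673-1 by -0.46 (adjusted P = 1.7e-05). All adjusted P values are from limma.

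**Figure D4:**
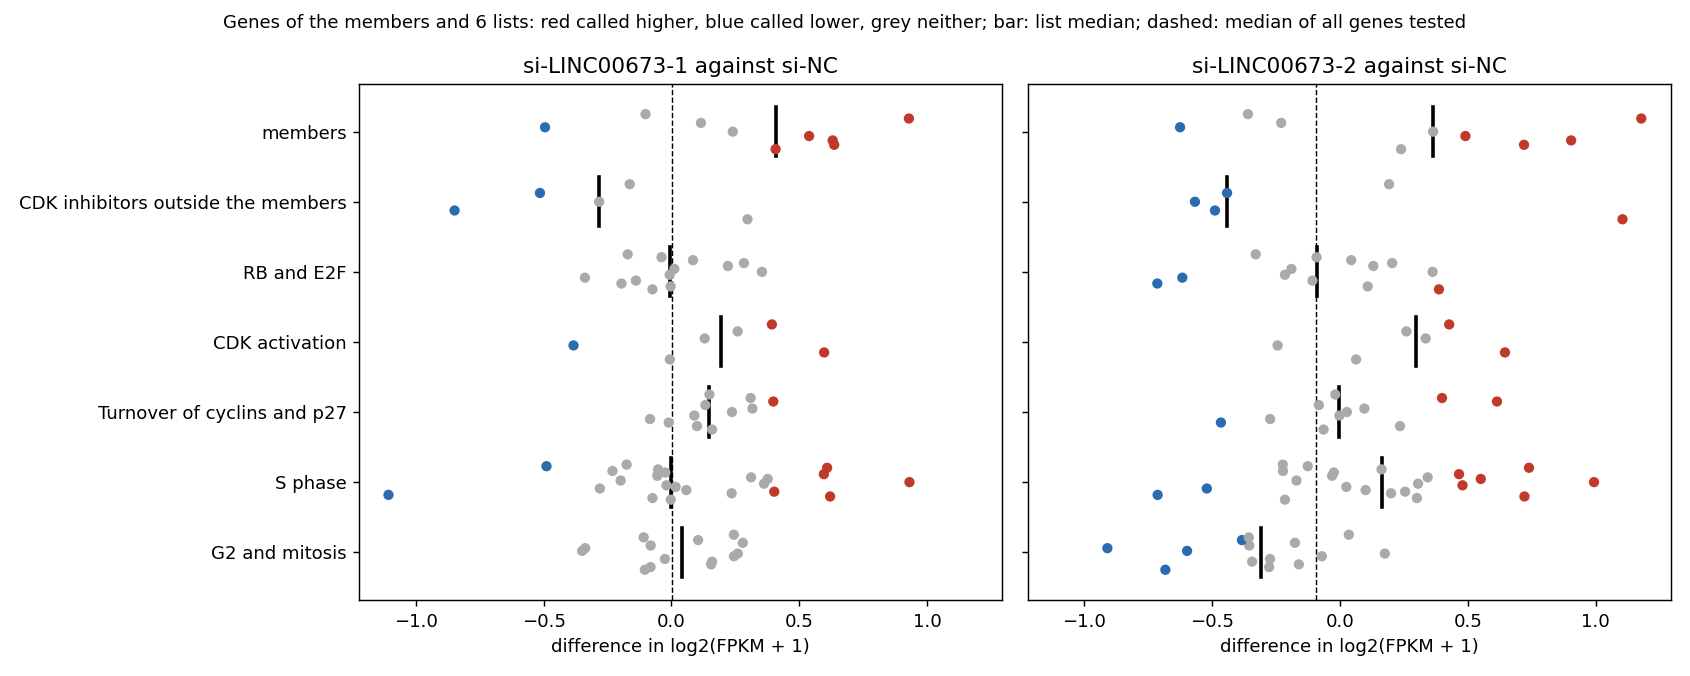
Differences in log2(FPKM + 1) (horizontal axes) of the 9 tested members and of the genes in 6 lists, for si-LINC00673-1 (left) and si-LINC00673-2 (right) against si-NC. Points are genes, coloured red if called higher, blue if called lower and grey if neither; bars are list medians and the dashed line is the median of all genes tested. The members have 5 red points and 1 blue on the left and 4 red and 1 blue on the right, and G2 and mitosis has 0 coloured points on the left and 4 blue on the right, beside 26.7% and 34.0% of all genes tested that were called.

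For CCND1, CDKN1A and CDKN1B, the genes with the most similar pattern were found by Pearson correlation of log2(FPKM + 1) over the 9 libraries, which fall into the 3 groups. Closest to CCND1 were ZHX3 (r = 0.997), KMT2D (r = 0.996) and the predicted gene BGI_novel_G002674 (r = 0.996), and 428 genes had r above 0.95. Among the closest to CDKN1A were PGAM1 (r = 0.999) and RRAGA (r = 0.998), with 787 genes above 0.95, and closest to CDKN1B were TBCC (r = 0.995), KIF18B (r = 0.993) and MEX3A (r = 0.992), with 399. PGAM1, a glycolytic enzyme, was at 264, 424 and 475 FPKM in the means of si-NC, si-LINC00673-1 and si-LINC00673-2, and KIF18B, a mitotic kinesin, at 10.9, 9.10 and 6.29 FPKM. The points share libraries and group means, and the correlations describe likeness alone.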

How the data were processed

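RNA was sequenced from 9 libraries labelled MDA-MB-453, 3 each for si-NC, si-LINC00673-1 and si-LINC00673-2. Groups and replicate labels came from the titles, and the library without a suffix was numbered replicate 3. The authors deposited 1 table of FPKM per gene and library. Their processing notes name Bowtie2 and GRCh37.p13, and the counting tool is not given in the sources used here. The deposited comparisons between groups (log2 ratios and their p-values) were not used, and 4 lines without values were left out.

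Genes averaging 1 FPKM or more (12884 of 19930) were tested as log2(FPKM + 1) in 1 limma fit of all 9 libraries (limma 3.58.1, R 4.3.3, eBayes with trend), with the group as the only factor and Benjamini-Hochberg adjustment over all genes tested. The design had allowed for counts or FPKM, and the FPKM form was used. The fit was tested on simulated data. Depth was estimated from the FPKM steps of 158 to 193 genes with 1 transcript per library (23.4 to 28 M fragments). The mean distance of those values from whole fragments was 0.068 to 0.091, so counts were not rebuilt and no count model was fitted. By these estimates all si-NC libraries, at 26.1 to 28 M fragments, were deeper than those of both other groups. These were at 24.7 to 26.0 M for si-LINC00673-1 and 23.4 to 25.2 M for si-LINC00673-2. Tables were handled with pandas 2.3.3, numpy 2.4.6, scipy 1.17.1 and matplotlib 3.10.9 under Python 3.11.15. Promoters came from RefSeq (GRCh38.p14), and 3′UTRs and overlapping genes from GENCODE release 29 (GRCh38), used without conversion to GRCh37.

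The members and gene lists were chosen with earlier results of these data known. The genes named were the 10 members, the 3 genes of each list with the largest absolute mean log2 difference over both siRNAs, E2F1, RB1, CDKN2A, CDKN2C, SKP2 and MKI67, the cell markers, the 3 genes most like CCND1 and CDKN1B and 2 of the 3 most like CDKN1A, and genes overlapping a member; CDKN2B and CDKN2D were added after their values were seen. Alternatives were a pseudocount of 0.1, no expression limit or a minimum of 5 FPKM, median-ratio scaling, GC correction (on the 86.9% of tested genes with a GC value), only the libraries compared, a block for the replicate labels, fits without each library, an adjusted P, and a fold limit of 2 or none. Some genes and 1 gene list of the design are not reported here.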

Additional observations from a re-analysis of the deposited data

Results flagged for a closer look

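The effect of the siRNAs against LINC00673 differed between them, by limma's test of the difference itself (adjusted P of 0.05 or less), for 6 of the 9 tested members, against 44.0% of all genes tested. On the log2 scale, si-LINC00673-2 minus si-LINC00673-1 was -0.17 for CCND1 (49.9 against 56.2 FPKM), 0.12 for CDK2 (57.4 against 52.6 FPKM), -0.13 for CDK4 (41.6 against 45.7 FPKM), -0.35 for CDK6 (18.7 against 24.1 FPKM), 0.25 for CDKN1A (36.2 against 30.3 FPKM) and -0.26 for CDKN1B (21.9 against 26.4 FPKM). For each of the 6 genes the 3 libraries of one siRNA did not overlap the 3 of the other, as for 53.7% of all genes tested. The CCND1 and CDK4 differences did not pass after median-ratio scaling (-0.066 and -0.029). With GC correction CCND1 passed (-0.097, adjusted P = 0.0061, limma) and CDK4 did not (-0.068, adjusted P = 0.13, limma).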

How the results depend on the processing

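The alternatives that refit the values, without those that only change the P or fold limit, gave 426 values of the 9 members. Some of these fits, such as the replicate block, leave the log2 difference as it was and can change only its P. Of the 426 values, 421 kept their direction and their call by fold and P together. The exceptions were CCND1 with si-LINC00673-1 (0.37 with GC correction, below the fold limit), CDK2 with si-LINC00673-2 (0.47 with scaling and 0.41 with GC correction, above it), and CCNE2 between the siRNAs (0.023 with scaling and 0.085 with GC correction, reversed). The cause was not tested. By the unadjusted P alone 18 of the 426 crossed 0.05, namely CDK6 with si-LINC00673-1 in 6 and, between the siRNAs, CCND3 in 6, CCNE1 in 4 and CDK4 in 2. Leaving out each library in turn left 6, 5 and 0 members called with si-LINC00673-1, si-LINC00673-2 and between them, and 3322 to 3582, 4304 to 4475 and 937 to 1119 genes called. With si-LINC00673-1, genes called numbered 3436 as reported, 2211 at a minimum of 5 FPKM, 8724 with no fold limit and 366 at a limit of 2, where 0 members and 1 list gene were called (49 list genes with no limit, 13 as reported). With si-LINC00673-2 they numbered 4385, 2714, 9396 and 604, members called were 3 at the minimum of 5 FPKM (which removes CCNE1 and CCNE2 from the test), 9 with no limit and 1 (CDKN1A) at a limit of 2, and list genes were 57 with no limit and 1 at a limit of 2 (24 as reported). Between the siRNAs they numbered 984, 547, 6697 and 40, with 1656 at a pseudocount of 0.1 and 571 with GC correction; with no limit 7 members and 47 list genes were called, and 0 list genes at a limit of 2. Scaling moved the calls that were lower from 67.8% to 53.7% with si-LINC00673-2 and from 71.3% to 39.0% between the siRNAs (GC correction: 51.1% and 46.2%). With scaling the log2 ratio of summed D cyclins was 0.54 for si-LINC00673-2 against si-NC and 0.038 between the siRNAs (reversed from -0.067), E cyclins between the siRNAs 0.30, CDK4 with CDK6 -0.42 and -0.11, and CDKN1A with CDKN1B 0.51 and 0.14. Reversed among list genes were E2F1 with si-LINC00673-1 (GC correction, 0.23), CUL1 with si-LINC00673-1 (-0.027 to 0.011 in leave-one-out fits, reversed at 0.00015 and 0.011) and SKP2 with si-LINC00673-2 (0.079 with scaling, 0.026 with GC correction, and -0.062 to 0.022 in leave-one-out fits, reversed at 0.00069, 0.0057 and 0.022). The replicate labels did not pair the libraries (deviations of same-numbered libraries correlated between -0.239 and 0.104, and 0 of 9 libraries correlated best with their own label), and with the replicate block 3449, 4400 and 988 genes and 6, 5 and 0 members were called. CCND2, at about 10 to 26 estimated fragments per library, had no difference detectable at this depth.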
